A study of Drosophila melanogaster with 212 samples.

Results

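Axon guidance and adhesion genes were followed in single octopaminergic/tyraminergic neurons of the Drosophila melanogaster brain. They were all 14 genes with a symbol starting with beat- plus 35 others listed by symbol, 49 of the 17104 genes read, and none was missing from the table. Their values come from 175 Tdc2-positive cells, those in which Tdc2, the tyrosine decarboxylase gene that makes tyramine, reached 100 CPM (counts per 1000000 counts of a cell or group). Of these cells, 49 came from nervy-mutant females, 44 from wild-type females, 44 from nervy-mutant males and 38 from wild-type males. All flies were housed 15 together from eclosion until day 6, and brain cells carrying a membrane-bound green fluorescent reporter were sorted 1 to a well. The labels name neither the mutant allele nor the driver of the reporter. They name no animal either, so a group counts as 1 sample, and the differences given here have no replicate check and no test.

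These proteins let growing axons choose their paths and let neurons recognise their partners. Receptors of the Beaten path (Beat) family bind Sidestep (Side) proteins on other cells, Robo receptors respond to the repellent Slit, Plexins to Semaphorins, Frazzled and Unc-5 to Netrins, and Eph to Ephrin. Fasciclins, Dscams, teneurins, cadherins and leucine-rich repeat proteins act at contacts between cells, where many also help to sort synaptic partners. Nervy belongs to a family of transcriptional corepressors, and in fly motor axons it was also described as an anchor of protein kinase A that binds Plexin A.

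Markers of the sorted type were present. Tdc2 had between 5155 and 6000 CPM in the groups, the vesicular transporter gene Vmat between 87450 and 99340 CPM, and the neuronal gene nSyb was at 10 CPM or more in all 175 cells. The targeted gene nvy had 9.85 CPM in mutant and 14.6 CPM in wild-type females (95% exact Poisson intervals 8.872 to 10.91 and 13.49 to 15.76), and 7.38 CPM in mutant and 17.5 CPM in wild-type males (6.632 to 8.202 and 16.24 to 18.77). The male transcript roX1 reached 10 CPM in all 82 male cells and in 2 of 93 female cells. Counts per cell ran from 20875 to 3045780, with group medians from 658222 to 1237651. Nearly the same values stood in 7 pairs of Tdc2-positive cells of different groups, 6 of them mutant and wild-type males and 1 of them females, and ratios between males are also given without the cells of such pairs. A sum of 6 glial markers reached 1000 CPM in 8 mutant male, 9 wild-type male and 0 female cells, with a highest value of 792.53 CPM in mutant females against 866.31 in wild-type females, and 106640 in mutant males against 58228 in wild-type males, and its defining gene repo was at 10 CPM or more in 9 cells. The running number in the column headings, whose meaning the labels do not give, was 96 or less in 28 mutant and 20 wild-type male cells and in 0 mutant and 4 wild-type female cells.

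Most of the genes were expressed in these neurons, but few of them in every cell. A mean of 20 CPM or more over the groups was reached by 45 of the 49. Of all 49, 30 were at 10 CPM or more in at least 50% of the cells and 12 in at least 90%. The 4 below 20 CPM were Dscam3 (9.09 CPM), robo2 (2.17 CPM), NetA (0.109 CPM) and Sema5c (0.088 CPM), and no cell had 10 CPM of NetA or Sema5c. Each level given for a group is the summed count of the gene over the summed count of all genes, and for the 45 genes at 20 CPM its Poisson interval reached at most 9.43% of the level. Cells varied far more: for these 45 genes the top cell of a group held a median of 14.8% of a gene's reads, from 6.84% to 38.3%, while for robo2 it held up to 95.7% and for Dscam3 up to 62.6%.

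**Figure D1:**
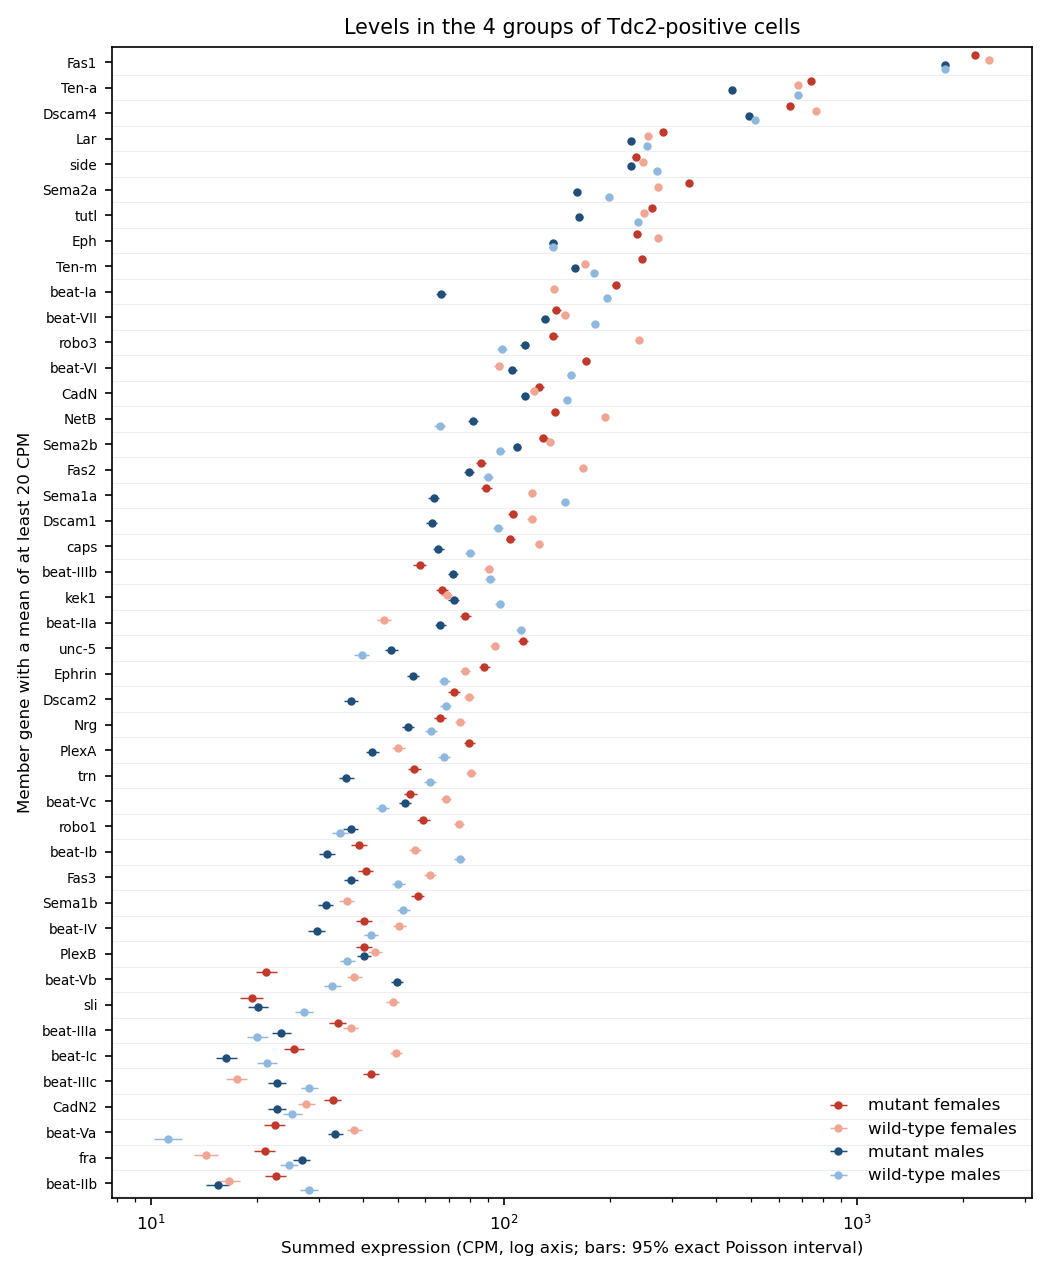
Summed expression in CPM (log axis) of the 45 genes whose mean reached 20 CPM, 1 point for each group with its 95% exact Poisson interval. Fas1 lies highest in all 4 groups, from 1777 to 2371 CPM, and for most genes the groups lie closer together than the genes do.

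Among the Beat receptors, 3 had means above 100 CPM. The gene beat-Ia, whose protein lets motor axons leave their bundle, had 207.6 CPM in mutant females against 138.6 in wild-type females, and 66.4 in mutant males against 196.7 in wild-type males, and ran over single cells from 0 to 2146 CPM, with a median of 24.2 CPM. The level of beat-VI was 170.7 CPM in mutant females against 96.8 in wild-type females, and 105.7 in mutant males against 154.9 in wild-type males. For beat-VII it was 140.9 CPM in mutant females against 149.2 in wild-type females, and 130.99 in mutant males against 180.7 in wild-type males. Mutant males were lowest for beat-Ia and beat-VII and wild-type females for beat-VI. A single cell, which was under 100 CPM of Tbh, held 37.9% of the beat-VI reads of mutant females, and without it their level was 111.02 CPM. Without the cells under 100 CPM of Tbh, described further on, beat-VI had 91 CPM in mutant females against 89.6 in wild-type females, and beat-Ia had 157.1 CPM in mutant females against 151.8 in wild-type females.

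The other 11 Beat genes had means from 20.7 CPM (beat-IIb) to 77.9 CPM (beat-IIIb). Of the first subfamily, beat-Ib had 38.8 CPM in mutant females against 56.2 in wild-type females, and 31.5 in mutant males against 74.9 in wild-type males. Its neighbour beat-Ic had 25.5 CPM in mutant females against 49.5 in wild-type females, and 16.4 in mutant males against 21.4 in wild-type males. Mutant males were lowest for both, but wild-type males were highest for beat-Ib and wild-type females for beat-Ic. In the second subfamily, beat-IIa had 77.7 CPM in mutant females against 45.8 in wild-type females, and 66 in mutant males against 111.7 in wild-type males. There, beat-IIb had 22.6 CPM in mutant females against 16.6 in wild-type females, and 15.5 in mutant males against 28.1 in wild-type males. Wild-type males were highest for both, and without 1 cell the beat-IIb level of wild-type females was 11.03 CPM.

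In the third subfamily, beat-IIIa had 33.8 CPM in mutant females against 36.9 in wild-type females, and 23.5 in mutant males against 20 in wild-type males. The exons of beat-IIIa lie wholly within those of CG34106, whose row differed by 0.041% of its reads, so these reads may belong to either gene. Close by, beat-IIIb had 57.9 CPM in mutant females against 90.7 in wild-type females, and 71.8 in mutant males against 91.4 in wild-type males. For beat-IIIc the levels were 42.1 CPM in mutant females against 17.5 in wild-type females, and 22.8 in mutant males against 28.1 in wild-type males, so mutant females were highest for this gene alone of the 3. The lone member beat-IV had 40.2 CPM in mutant females against 50.6 in wild-type females, and 29.5 in mutant males against 42.1 in wild-type males. In the remaining subfamily, beat-Va had 22.5 CPM in mutant females against 37.8 in wild-type females, and 33.3 in mutant males against 11.2 in wild-type males. Next to it, beat-Vb had 21.3 CPM in mutant females against 37.7 in wild-type females, and 49.9 in mutant males against 32.7 in wild-type males. For beat-Vc the values were 54.4 CPM in mutant females against 68.6 in wild-type females, and 52.6 in mutant males against 45.3 in wild-type males. All 3 beat-V genes were lower in mutant than in wild-type females and higher in mutant than in wild-type males, but without the cells under 100 CPM of Tbh beat-Vc had 44.9 CPM in mutant females against 44.8 in wild-type females.

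Of the Sidestep ligands, side, which draws motor axons carrying Beat-Ia towards their muscles, had 236.3 CPM in mutant females against 248.5 in wild-type females, and 229.5 in mutant males against 271.1 in wild-type males. It stood at 10 CPM or more in 92.6% of cells, and 94 of the 97 cells with beat-Ia also had side. The other 7 Sidestep genes, taken as a list, all reached 20 CPM, with a median share of cells of 73.7%. None of them differed 2-fold between genotypes of 1 sex or between sexes of 1 genotype, with CG12484 (side-VIII), for example, at 127.9 CPM in mutant females against 93.1 in wild-type females, and 103.2 in mutant males against 82.2 in wild-type males.

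Slit is the midline repellent that Robo receptors bind. For sli the levels were 19.3 CPM in mutant females against 48.4 in wild-type females, and 20.1 in mutant males against 27.2 in wild-type males. The receptor gene robo1 had 59.2 CPM in mutant females against 74.8 in wild-type females, and 36.8 in mutant males against 34.4 in wild-type males. The gene robo3, whose receptor sets the lateral position of axons in the embryo, had 138.2 CPM in mutant females against 241.3 in wild-type females, and 114.5 in mutant males against 98.7 in wild-type males. Females were above males of the same genotype for robo1 and robo3, and per kilobase the mean levels were 3.04 CPM for sli, 8.05 CPM for robo1 and 20 CPM for robo3. The third receptor gene, robo2, did not exceed 3.42 CPM in any group, and 41% of its exon bases are shared with other genes.

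Semaphorin genes ranged widely. The secreted ligand gene Sema2a had 334.6 CPM in mutant females against 273.4 in wild-type females, and 160.9 in mutant males against 198.3 in wild-type males. Its relative Sema2b had 129.5 CPM in mutant females against 134.9 in wild-type females, and 109.2 in mutant males against 97.8 in wild-type males. Both were higher in either group of females than in either group of males. The membrane ligand gene Sema1a had 89.3 CPM in mutant females against 120.2 in wild-type females, and 63.4 in mutant males against 148.6 in wild-type males, and over single cells it ran from 0 to 582.0 CPM, with a median of 93.8 CPM. Sema1b had 57.1 CPM in mutant females against 35.9 in wild-type females, and 31.3 in mutant males against 52 in wild-type males. Their receptor gene PlexA had 79.8 CPM in mutant females against 50.3 in wild-type females, and 42.5 in mutant males against 67.7 in wild-type males, so that mutants were above wild type in females and below it in males. PlexB, whose product binds the Sema2 proteins, had 40.3 CPM in mutant females against 43.2 in wild-type females, and 40.2 in mutant males against 36 in wild-type males. PlexA was at 10 CPM or more in 76% of all cells, in 77.7% of those with Sema1a and in 61.1% of those without it. PlexB was at 10 CPM or more in 70.9% of all cells, in 72.5% of those with Sema2a and in 37.5% of those without it. The shares without the ligand gene rest on few cells, 11 with and 7 without PlexA, and 3 with and 5 without PlexB.

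NetB was the Netrin gene read in these cells. It had 139.5 CPM in mutant females against 193.3 in wild-type females, and 82 in mutant males against 65.8 in wild-type males. The repulsive receptor gene unc-5 had 113.3 CPM in mutant females against 94.1 in wild-type females, and 48 in mutant males against 39.5 in wild-type males. The attractive receptor gene fra had 21 CPM in mutant females against 14.3 in wild-type females, and 26.8 in mutant males against 24.7 in wild-type males. Per kilobase of listed transcript, the mean level was 14.1 CPM for unc-5 and 3.44 CPM for fra.

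Eph and Ephrin are a receptor and its ligand. The receptor tyrosine kinase gene Eph had 239.1 CPM in mutant females against 272.5 in wild-type females, and 137.97 in mutant males against 137.8 in wild-type males, at 10 CPM or more in 97.1% of cells. Its ligand gene Ephrin had 88.1 CPM in mutant females against 77.6 in wild-type females, and 55.3 in mutant males against 67.8 in wild-type males. Eph was at 10 CPM or more in 99.3% of the cells with Ephrin and in 89.2% of those without it (33 cells with and 4 without Eph).

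The adhesion genes included the highest levels. Fas1, a membrane-anchored protein of axon bundles, had 2164 CPM in mutant females against 2371 in wild-type females, and 1780 in mutant males against 1777 in wild-type males. It was at 10 CPM or more in every one of the 175 cells, from 182.2 to 5309 CPM, with a median of 1974 CPM. Per kilobase its mean level was 422 CPM, followed by 77.8 CPM for Dscam4, 68.5 CPM for Sema2a, 53.2 CPM for beat-Ia and 45.7 CPM for Ten-a. Fas2, a homophilic protein related to vertebrate NCAM, had 86.2 CPM in mutant females against 167.2 in wild-type females, and 79.9 in mutant males against 90.1 in wild-type males, with wild-type females highest. Fas3, another homophilic protein, had 40.6 CPM in mutant females against 61.8 in wild-type females, and 36.9 in mutant males against 50.2 in wild-type males.

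In the Dscam family, the mean level per kilobase was 77.8 CPM for Dscam4, 10.54 CPM for Dscam1 and 6.4 CPM for Dscam2. Dscam4 had 645.3 CPM in mutant females against 766.2 in wild-type females, and 494.2 in mutant males against 515.7 in wild-type males, in 98.9% of cells. Dscam1, whose many splice forms serve self-avoidance, had 105.96 CPM in mutant females against 119.9 in wild-type females, and 62.5 in mutant males against 96.3 in wild-type males. Dscam2, which has alternative homophilic forms, had 72.4 CPM in mutant females against 79.7 in wild-type females, and 36.9 in mutant males against 68.5 in wild-type males, in 35.4% of cells. Dscam2 was thus the Dscam gene above 20 CPM that most cells lacked, and its levels were over 1.5 times lower without the cells under 100 CPM of Tbh in all groups but mutant males, with the values given further on. Of the teneurins, which match synaptic partners, Ten-a had 740.3 CPM in mutant females against 682.03 in wild-type females, and 444.2 in mutant males against 680.5 in wild-type males. Ten-m had 246.4 CPM in mutant females against 170.1 in wild-type females, and 158.9 in mutant males against 180.5 in wild-type males. Ten-a was in 97.1% and Ten-m in 95.4% of cells.

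The cadherin gene CadN had 125.9 CPM in mutant females against 121.7 in wild-type females, and 114.8 in mutant males against 150.6 in wild-type males. Its neighbour CadN2 had 32.8 CPM in mutant females against 27.6 in wild-type females, and 22.8 in mutant males against 25.2 in wild-type males, in 49.1% of cells. The leucine-rich repeat gene caps had 104.5 CPM in mutant females against 125.9 in wild-type females, and 65.3 in mutant males against 80.3 in wild-type males. The related trn had 55.7 CPM in mutant females against 80.7 in wild-type females, and 35.8 in mutant males against 61.8 in wild-type males. Both encode surface labels of target regions, and mutant males were lowest for both. A further leucine-rich repeat gene, kek1, whose product inhibits the epidermal growth factor receptor in the ovary, had 66.9 CPM in mutant females against 68.9 in wild-type females, and 72 in mutant males against 97.3 in wild-type males.

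Nrg, the fly L1 protein, had 66 CPM in mutant females against 75.1 in wild-type females, and 53.6 in mutant males against 62.1 in wild-type males. The gene tutl, an immunoglobulin protein of dendrite self-avoidance, had 263.5 CPM in mutant females against 249.4 in wild-type females, and 163.7 in mutant males against 239.2 in wild-type males. The receptor phosphatase gene Lar had 282.1 CPM in mutant females against 255.9 in wild-type females, and 228.8 in mutant males against 254.2 in wild-type males. These 3 differed less than 2-fold between any of the groups. The row of CG46244 differed from that of Lar by 0.075% of its reads, and 83.6% of the exon bases of Lar are shared with it, so these reads cannot be assigned to either gene. PlexB, Ten-m, unc-5, Ten-a and Dscam1 share up to 5.5% of their exon bases with other genes and are uncertain to that extent.

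Single neurons differed in which Beat genes they carried. A cell had a median of 30 of the 49 genes at 10 CPM or more (range 3 to 46) and of 6 of the 14 Beat genes (range 0 to 14). The medians of all members were 31 in mutant females against 30 in wild-type females, and 30 in mutant males against 30.5 in wild-type males. After thinning each cell to 190000 reads, which left out 5, 6, 2 and 1 shallower cells in that order, they were 30.5 in mutant females against 31 in wild-type females, and 29 in mutant males against 31 in wild-type males. The commonest combination of Beat genes was shared by 5 cells, and 106 cells had a combination seen in no other cell. How many would be seen once if the genes were on independently of each other was not computed. Near-identical cells of different groups entered these counts separately. The 6 cells with under 15 members had a median of 2097 genes read, against 5800 in the other cells. Among these 6 was the mutant male cell with the highest glial sum, 106640 CPM, whose Tdc2 level was the lowest of all cells. The lowest mutant female cell, with 7 members, came from a group in which no glial sum passed 792.53 CPM. At the other end, a wild-type male cell with a glial sum of 1246.07 CPM had beat-IV and all genes of the first 3 Beat subfamilies at 10 CPM or more. How far glial RNA, or RNA of more than 1 cell in a well, sets either end of the range was not tested.

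**Figure D2:**
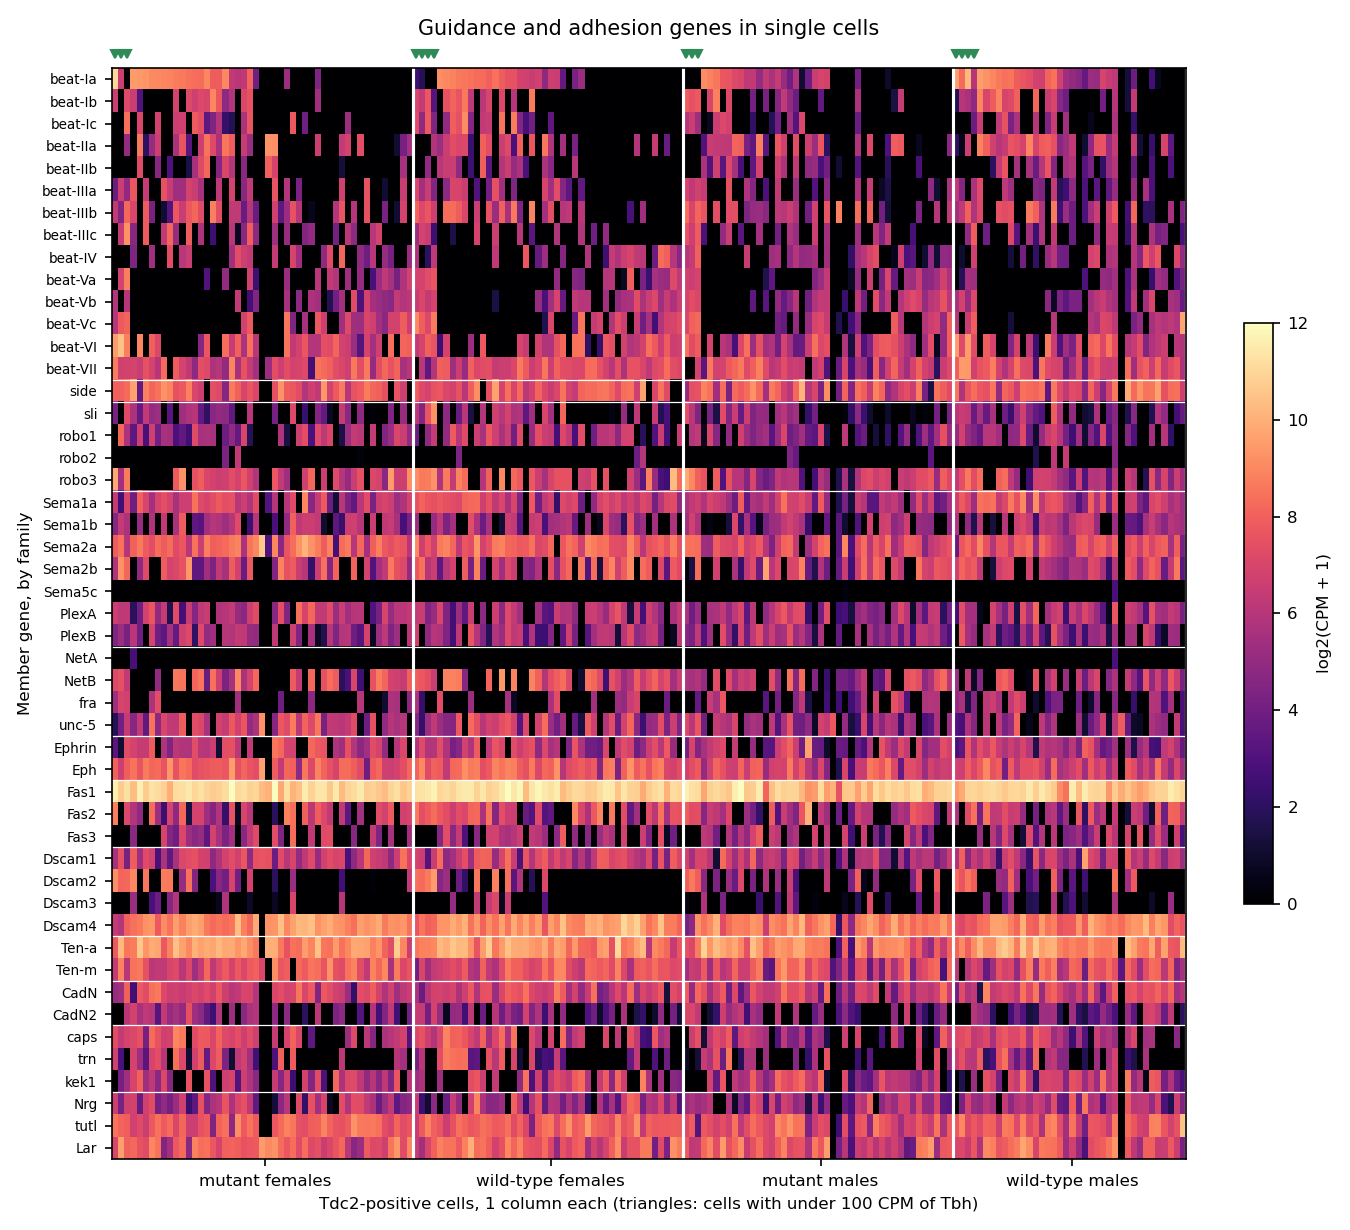
Expression as log2(CPM + 1) of the 49 genes (rows, by family) in the 175 Tdc2-positive cells (columns), with mutant females, wild-type females, mutant males and wild-type males from left to right. Within a group, cells under 100 CPM of Tbh come first (triangles) and the rest are ordered by beat-Ia minus the mean of the 3 beat-V genes, which fixes the opposed blocks of those rows. Fas1, Dscam4 and Ten-a fill their rows, and the Beat rows other than beat-VII are patchy.

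Beat genes were patchy even beside genes of like level. Of the 14, beat-VII, at 91.4%, was the 1 in at least 90% of cells, beat-VI followed with 70.3% and beat-Ia with 55.4%, and beat-IIb was rarest with 28.6%. The median share was 43.7% over the Beat genes, 73.7% over the other 31 members at 20 CPM and 76.6% over all 5533 genes at that level. From 20 to 100 CPM, the median share was 38.9% for 11 Beat genes, 66% for 16 other members, 64% for all 3661 genes and 32% for 7 genes of the Dpr and DIP recognition families. Where beat-Ia was on it was well read: the 97 cells with it had a median of 187.2 CPM, and 71 of the 175 cells had no read of it.

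Neighbouring Beat genes tended to be on in the same cells. In dm6, beat-Ib (2L from 15905134 to 15962435, minus strand), beat-Ic (2L from 16000291 to 16041703, plus strand) and beat-Ia (2L from 16049965 to 16081684, plus strand) form one cluster. On the same arm lie beat-IIIb (16973091 to 16993984, plus strand), beat-IIIa (17131024 to 17173118, plus strand) and beat-IIIc (17187637 to 17260734, minus strand). On 3R lie beat-Vc (12746036 to 12783216, minus strand), beat-Va (12840560 to 12848419, minus strand) and beat-Vb (12916056 to 12934813, plus strand), and also beat-IIb (17232253 to 17265049, minus strand) and beat-IIa (17320004 to 17366119, minus strand). The median rank correlation (Spearman rho of CPM over 175 cells) was 0.54 for the 10 pairs within a cluster, -0.02 for the 81 other Beat pairs and 0.07 for all 1035 pairs of 46 members. Within groups the median of the 10 pairs was 0.52 in mutant females against 0.59 in wild-type females, and 0.48 in mutant males against 0.49 in wild-type males. Of the 10 highest pairs of all, 6 were neighbouring Beat genes. These correlations are descriptions, since cells may share animals, sorts and library pools.

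Individual pairs show how far this went. The highest value was 0.68, for beat-Ib with beat-Ic, which lie 37.9 kb apart: 65.6% of the cells with beat-Ib had beat-Ic, against 9.65% of the cells without it. For beat-IIIa with beat-IIIb, 137.04 kb apart, rho was 0.65, and 92.6% of the cells with beat-IIIa had beat-IIIb, against 30.8% of the others. The genes beat-IIa and beat-IIb, 55 kb apart, had 0.6. Among the beat-V genes rho was 0.55 for beat-Va with beat-Vb, 0.55 for beat-Va with beat-Vc and 0.53 for beat-Vb with beat-Vc. The remaining pairs within a cluster were lower. They had 0.51 for beat-Ia with beat-Ib, 0.4 for beat-Ia with beat-Ic, 0.38 for beat-IIIa with beat-IIIc and 0.34 for beat-IIIb with beat-IIIc. Outside the family, the neighbours caps and trn, 110.6 kb apart on 3L, had 0.59. Nearness did not always go with a high rho, as CadN and CadN2, 8.63 kb apart, had 0.16. Sema2a and Sema2b, 68.4 kb apart on 2R, had -0.02. The closest Beat pairs, beat-Ia with beat-Ic (8.26 kb) and beat-IIIa with beat-IIIc (14.5 kb), were among the lower pairs within a cluster.

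**Figure D3:**
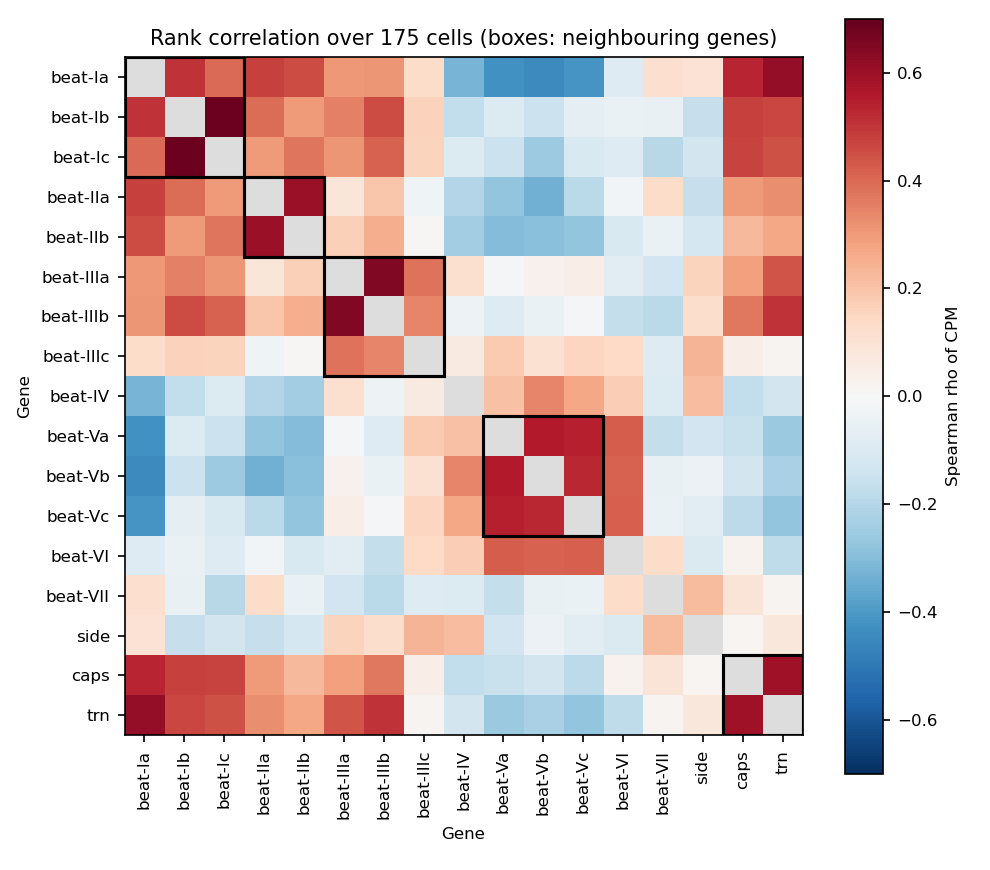
Spearman rho of CPM over the 175 Tdc2-positive cells between the 14 Beat genes, side, caps and trn (both axes), red above 0 and blue below 0. Boxes enclose genes that neighbour each other, whose Beat pairs have a median of 0.54, and the cells for beat-Ia with the beat-V genes are blue, at -0.42 to -0.45.

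The gene beat-Ia and the beat-V genes were opposed. The 3 lowest values of all pairs were those of beat-Ia with beat-Vb (-0.45), beat-Va (-0.42) and beat-Vc (-0.42), each of them below 0 in all 4 groups. A beat-V gene was at 10 CPM or more in 39 of the 97 cells with beat-Ia (40.2%) and in 66 of the 78 cells without it (84.6%). Among cells with beat-Ia these were 9 of 25 in mutant females against 6 of 23 in wild-type females, and 9 of 21 in mutant males against 15 of 28 in wild-type males. Among cells without beat-Ia they were 20 of 24 in mutant females against 20 of 21 in wild-type females, and 18 of 23 in mutant males against 8 of 10 in wild-type males. The share was thus lower beside beat-Ia in every group. In contrast, beat-Ia ran with trn (0.62) and caps (0.53), and NetB with robo3 (0.48). Other low values were those of NetB with kek1 (-0.36), of beat-Va with Ten-a (-0.34) and, chosen after the values were seen, of Dscam2 with Dscam4 (-0.31).

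Known ligand and receptor pairs had low values across cells. They were 0.26 for Ephrin with Eph, 0.13 for sli with robo1, 0.06 for sli with robo3, 0.13 for Sema1a with PlexA, 0.06 for Sema2a with PlexB, 0.08 for Sema2b with PlexB, 0.03 for NetB with unc-5 and -0.04 for NetB with fra. Those of side with the 14 Beat genes ran from -0.16 to 0.24. Ten-a with Ten-m, which can bind each other, had 0.27. Among other Sidestep genes, chosen after values were seen, CG14372 (side-IV), whose protein binds Beat-II proteins, had 0.09 with beat-IIa and 0.02 with beat-IIb. CG42313 (side-II) had 0.16 with beat-VI. CG34114 (side-VI), whose protein binds Beat-V proteins, had 0.26 with beat-Va, 0.36 with beat-Vb and 0.28 with beat-Vc. Over the 46 members, rho with a cell's total counts lay between -0.17 and 0.15, with the glial sum between -0.19 and 0.24, and with the running number between -0.2 and 0.32, and the part of these in the pairs above was not tested.

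Between genotypes, no member differed 2-fold in the same direction in both sexes. Of all 5533 genes at 20 CPM, 0.108% were 2-fold higher and 0.0181% 2-fold lower in mutants of both sexes. With no Tdc2 minimum, 1 member was lower in both. The ratios, given in brackets, are log2((mutant CPM + 1) / (wild-type CPM + 1)), which understates the difference of low genes. In females, beat-IIIc was the 1 member of 45 that was 2-fold higher, with 42.1 CPM in mutant and 17.5 CPM in wild-type females (1.22), where 1.92% of all genes were. The 1 that was 2-fold lower was sli, with 19.3 CPM in mutant and 48.4 CPM in wild-type females (-1.28), where 1.07% of all genes were. Without the Tbh-low cells described further on, the ratio of sli was -0.66.

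In males the 1 member 2-fold higher was beat-Va, with 33.3 CPM in mutant and 11.2 CPM in wild-type males (1.49), where 1.21% of all genes were. Those 2-fold lower were 3, where 1.32% of all genes were. The first was beat-Ia, with 66.4 CPM in mutant and 196.7 CPM in wild-type males (-1.55). The next was beat-Ib, with 31.5 CPM in mutant and 74.9 CPM in wild-type males (-1.22). Sema1a, the third, had 63.4 CPM in mutant and 148.6 CPM in wild-type males (-1.22). Without the 6 mutant and 6 wild-type male cells that paired across groups, the ratios were 1.83 for beat-Va, -2.21 for beat-Ia, -1.59 for beat-Ib and -1.48 for Sema1a. Without the cells of any near-identical pair, those within a group included, 35 mutant and 27 wild-type male cells remained and the ratios were 1.53 for beat-Va, -2.04 for beat-Ia, -1.7 for beat-Ib and -1.63 for Sema1a. Among males with a running number above 96 they were 0.83 for beat-Va, -0.9 for beat-Ia, -0.41 for beat-Ib and -0.37 for Sema1a, none of them 2-fold, and among males numbered up to 96 they were 1.97, -2.38, -2.0 and -1.79 in that order. In males numbered up to 96, 8 members were 2-fold lower in mutants, where 5.19% of all genes were. Without the cells at 1000 CPM of glial markers the ratios were 1.59, -1.55, -1.21 and -1.26. In females beat-Ia and beat-Va went the other way, at 0.58 and -0.72, but without the Tbh-low cells the ratio of beat-Ia was 0.05 in females and -1.04 in males, while that of beat-Va was -0.66 in females and 1.54 in males.

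Members shared a direction between the sexes a little less often than all genes did, and those that did were mostly lower in mutants. Of the 45 members, 17 were lower and 2 higher in mutants of both sexes, together 42.2%, against 50.4% of all genes, of which 23.4% were lower and 27% higher in both. Ranked by the smaller of their ratios, the 2 higher ones were unc-5 (0.26 in females and 0.27 in males) and fra (0.52 and 0.11), and the lowest were trn (-0.53 and -0.77), beat-Ib (-0.52 and -1.22) and Fas3 (-0.59 and -0.43). The ratio of fra changed sign in females with per-cell means (-0.32) and in males without near-identical pairs (-0.25), and that of unc-5 was -0.03 in males numbered above 96. The median ratio of the members was -0.121 in females and -0.295 in males, against 0.0181 and 0.00913 for all genes. Over 13 alternatives, between 16 and 20 members were lower in both sexes and between 1 and 5 higher. For PlexA, the receptor that Nervy was described to bind, the ratio was 0.66 in females and -0.66 in males.

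**Figure D4:**
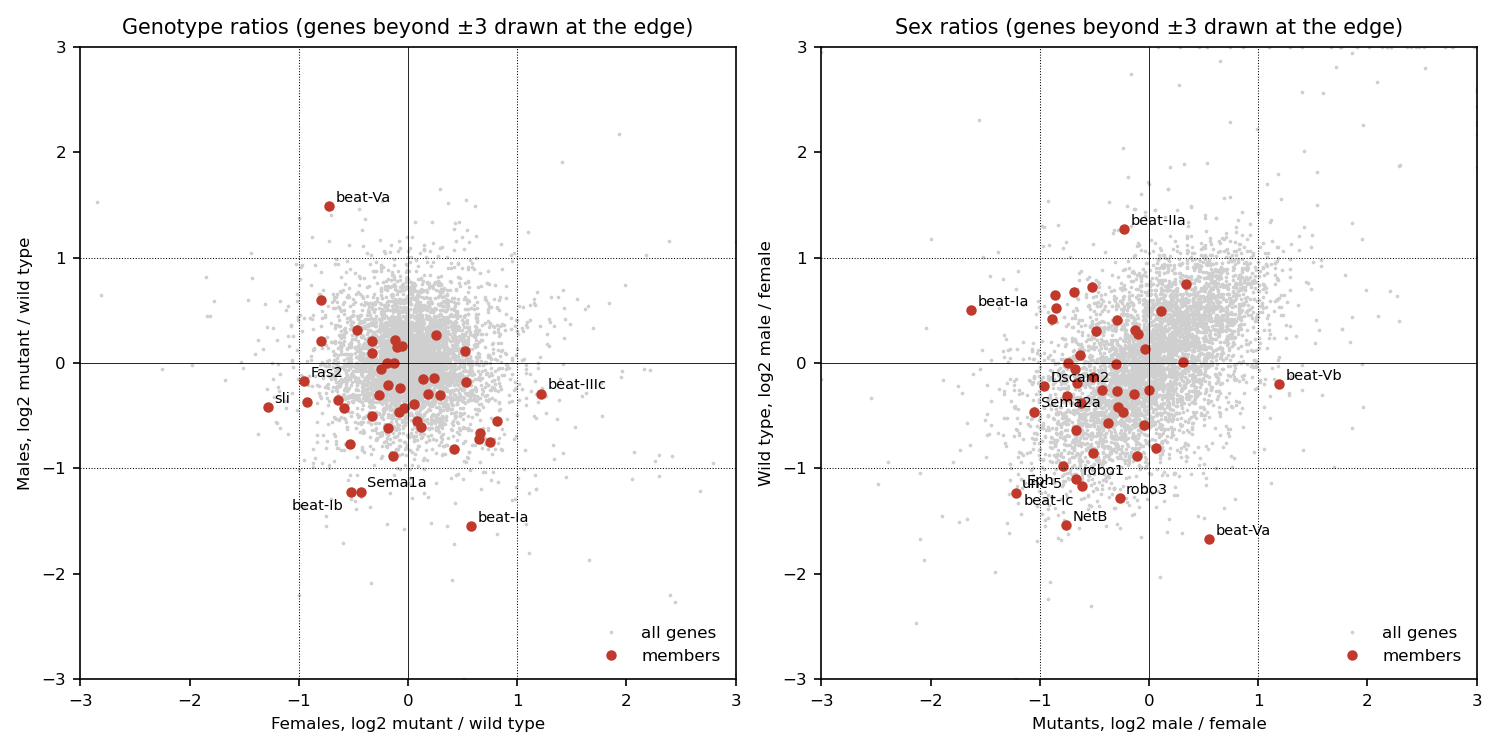
Left, log2 ratios of mutant to wild type in females (x axis) and males (y axis), and right, log2 ratios of male to female in mutants (x axis) and wild type (y axis). Grey points are all 5533 genes whose mean reached 20 CPM, red points the 45 members, and dotted lines mark 2-fold. On the left no member lies past 2-fold in a corner of shared direction, and on the right unc-5 does, in the lower left.

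Between the sexes, unc-5, the repulsive Netrin receptor gene, was the 1 member 2-fold lower in males of both genotypes. In mutants it had 48 CPM in males and 113.3 CPM in females (-1.22), and in wild type 39.5 CPM in males and 94.1 CPM in females (-1.23), with log2 ratios of male to female in brackets. It was at 10 CPM or more in 30 of 44 male and 42 of 49 female mutant cells, and in 21 of 38 male and 36 of 44 female wild-type cells. Among cells numbered above 96 the ratio was -1.07 in mutants and -0.56 in wild type. The gene lies on 2R from 15340472 to 15368300 (dm6, plus strand), and 4.34% of its exon bases are shared with Pms2. Of all genes, 0.56% were 2-fold lower and 1.5% 2-fold higher in males of both genotypes, and no member was higher.

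Within mutants, 3.63% of all genes were 2-fold higher in males and 3.31% 2-fold lower. The 1 member that was higher was beat-Vb, with 49.9 CPM in males and 21.3 CPM in females (1.19). Lower beside unc-5 were beat-Ia, with 66.4 CPM in males and 207.6 CPM in females (-1.63), and Sema2a, with 160.9 CPM in males and 334.6 CPM in females (-1.05). Among cells numbered above 96 the ratio was -0.85 for beat-Ia and 0.98 for beat-Vb, and 12 members were 2-fold lower in males, where 10.7% of all genes were. Without near-identical pairs the ratio of Sema2a was -0.96.

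Within wild type, 4.39% of all genes were 2-fold higher in males and 3.51% 2-fold lower. The 1 member that was higher was beat-IIa, with 111.7 CPM in males and 45.8 CPM in females (1.27), whose ratio was 0.83 with per-cell means. Lower beside unc-5 were NetB, with 65.8 CPM in males and 193.3 CPM in females (-1.54), and beat-Va, with 11.2 CPM in males and 37.8 CPM in females (-1.67). The Slit receptor genes were lower too, robo3 with 98.7 CPM in males and 241.3 CPM in females (-1.28) and robo1 with 34.4 CPM in males and 74.8 CPM in females (-1.1). The ratio of robo3 was -0.96 without each group's top cell, and that of robo1 -0.88 with per-cell means. The sixth was beat-Ic, with 21.4 CPM in males and 49.5 CPM in females (-1.17), whose ratio was -0.57 with males numbered up to 96 and females above 96, -0.86 without near-identical pairs and -0.82 without Tbh-low cells. Each group enters a genotype and a sex ratio, so these counts are not independent of those between genotypes.

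More members were lower in males than higher. Of 45, 39 had a ratio below 0 in mutants and 29 in wild type, 26 were lower in males of both genotypes and 3 were higher in both. These 29 of 1 direction were 64.4% of the members, against 70.7% of all genes, of which 33.6% were lower and 37.1% higher in both. After unc-5 the lowest were Eph (-0.79 in mutants and -0.98 in wild type) and NetB (-0.76 and -1.54). The higher ones were fra (0.34 and 0.75), kek1 (0.11 and 0.49) and beat-IIIb (0.31 and 0.01), but in wild type the ratio of beat-IIIb was -0.08 with TMM scaling, and in mutants that of kek1 was -0.01 without near-identical pairs and -0.07 without those across groups alone. The median ratio of the members was -0.487 in mutants and -0.216 in wild type, against 0.0149 and 0.0268 for all genes. With males numbered up to 96 and females above 96 the wild-type median was 0.07 and 14 members were lower in both genotypes, while with both sexes above 96 the medians were -0.54 in mutants and -0.5 in wild type.

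A small set of cells differed from the rest in more of these genes than the groups did, as it also did over all genes. Tbh, the gene of the enzyme that turns tyramine into octopamine, was under 100 CPM in 14 cells (Tbh-low: 3 mutant and 4 wild-type female, 3 mutant and 4 wild-type male) and higher in 161 (Tbh-high), with no cell between 62.1 and 482 CPM. Of 44 members at 20 CPM over both sets, 12 were 2-fold higher in Tbh-low cells, where 5.28% of all genes were, and 4 were 2-fold lower, where 4.52% of all genes were. In a comparison of 2 groups at most 4.39% of all genes were 2-fold higher and 3.51% 2-fold lower. The split used Tbh and not the members, and it carries no test. Ratios below are log2 of Tbh-low over Tbh-high.

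Dscam2 (3L from 7159199 to 7189931 on dm6, minus strand) had the highest ratio. It summed to 351.6 CPM in Tbh-low and 38.4 CPM in Tbh-high cells (3.16). It was at 10 CPM or more in 14 of 14 Tbh-low cells, which ran from 198.02 to 717.5 CPM, and in 48 of 161 Tbh-high cells, where the median was 0 and the highest 506.1 CPM, so that the sets overlapped. In mutant females it had 387.5 CPM in Tbh-low and 46.3 CPM in Tbh-high cells. In wild-type females it had 435.6 CPM in Tbh-low and 45.1 CPM in Tbh-high cells. In mutant males it had 266.3 CPM in Tbh-low and 25.5 CPM in Tbh-high cells. In wild-type males it had 300.2 CPM in Tbh-low and 39.6 CPM in Tbh-high cells. The ratio was 2.89 or more in each group. Its relative Dscam4 went the other way in all 4 groups, with 194.7 CPM in Tbh-low and 638.4 CPM in Tbh-high cells (-1.71).

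Fas3 (2L from 18320102 to 18393441 on dm6, plus strand) had no read in the Tbh-low cells. Its 0 of 13769609 reads there allow up to 0.218 CPM (3 counts over the 14 cells), against 51.5 CPM in Tbh-high cells, 96 of 161 of which were at 10 CPM or more. By that limit its summed level was at least 236.5-fold lower. With the same limit for each group, the summed level was at least 41.9-fold lower in females that were mutant, 88.9-fold in wild-type females, 28.8-fold in males that were mutant and 88.9-fold in wild-type males. These limits cover counting error in summed reads and not differences between cells, of which each group held 3 or 4 Tbh-low ones. By cells the contrast was less sharp, as 69 of all 175 cells had no read of Fas3. For 0 of 14 Tbh-low cells at 10 CPM the 95% exact binomial interval reached 23.2%, against 59.6% of Tbh-high cells. Also lower in all 4 groups were kek1, with 11.9 CPM in Tbh-low and 82 CPM in Tbh-high cells (-2.68), and beat-IIa, with 14.9 CPM in Tbh-low and 79.9 CPM in Tbh-high cells (-2.35).

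**Figure D5:**
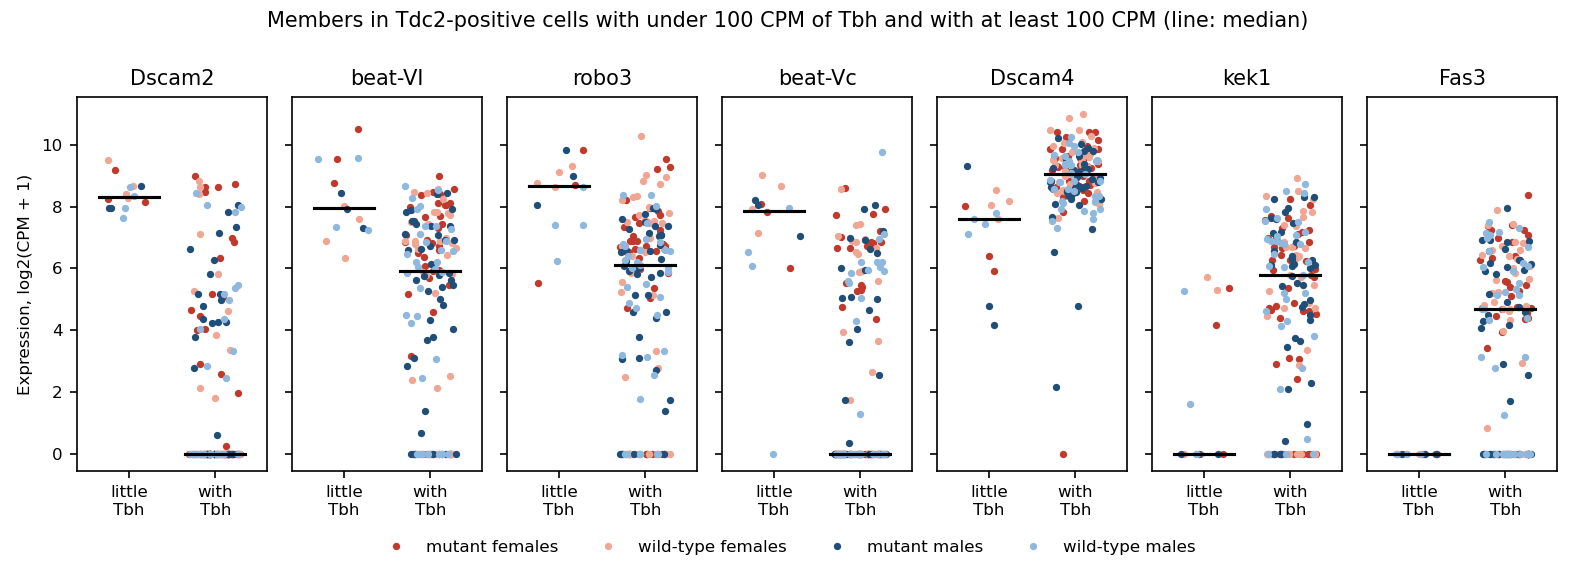
Expression as log2(CPM + 1) of 7 members in single Tdc2-positive cells under 100 CPM of Tbh (left in each panel, 14 cells) and above (right, 161 cells), coloured by group, with the median as a line. All 14 Tbh-low cells lie above 0 for Dscam2, beat-VI and robo3, and all 14 lie at 0 for Fas3.

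Several receptor genes were higher in the Tbh-low cells, in all 4 groups, but by unequal amounts. The level of beat-VI was 493.4 CPM in Tbh-low and 98.1 CPM in Tbh-high cells (2.32), and it was on in 14 of 14 Tbh-low cells. That of robo3 was 397.7 CPM in Tbh-low and 126.9 CPM in Tbh-high cells (1.64), also in 14 of 14. All 3 beat-V genes were higher, beat-Va with 89.2 CPM in Tbh-low and 21.2 CPM in Tbh-high cells (2.02), beat-Vb with 83.2 CPM in Tbh-low and 32.2 CPM in Tbh-high cells (1.34) and beat-Vc with 194.7 CPM in Tbh-low and 43.2 CPM in Tbh-high cells (2.15). The 3 genes of the third subfamily were higher as well, beat-IIIa with 65.1 CPM in Tbh-low and 25.1 CPM in Tbh-high cells (1.34), beat-IIIb with 153.8 CPM in Tbh-low and 72 CPM in Tbh-high cells (1.08) and beat-IIIc with 92.1 CPM in Tbh-low and 21.3 CPM in Tbh-high cells (2.06). Fas2 had 201.5 CPM in Tbh-low and 98.1 CPM in Tbh-high cells (1.03). Taken group by group, the ratio was 0.85 or more in every group for 7 of these 9 genes, and close to 0 in places for the other two. In mutant females it was 0.05 for beat-IIIb (59.7 CPM in Tbh-low and 57.7 CPM in Tbh-high cells) and 0.25 for beat-Vb (25.1 CPM in Tbh-low and 21 CPM in Tbh-high cells). In wild-type males it was 0.46 for beat-IIIb.

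The remaining 2 of the 12 were not higher in every group. The ligand gene sli had 104.7 CPM in Tbh-low and 22.4 CPM in Tbh-high cells (2.17), but in mutant females 15 CPM in Tbh-low and 19.7 CPM in Tbh-high cells. Over all groups beat-Ia had 381.9 CPM in Tbh-low and 127.8 CPM in Tbh-high cells (1.57), while 6 of 14 Tbh-low and 91 of 161 Tbh-high cells were at 10 CPM or more. In mutant females beat-Ia had 816.3 CPM in Tbh-low and 157.1 CPM in Tbh-high cells, and in wild-type females 1.78 CPM in Tbh-low and 151.8 CPM in Tbh-high cells. In mutant males it had 0 CPM in Tbh-low and 69.7 CPM in Tbh-high cells, and in wild-type males 616.03 CPM in Tbh-low and 144.4 CPM in Tbh-high cells. The sum of beat-Ia thus rested on a few Tbh-low cells, of which the highest had 2146 CPM.

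Other members had close levels in both sets. Fas1 had 2237 CPM in Tbh-low and 1997 CPM in Tbh-high cells, Eph 193.9 CPM in Tbh-low and 194.9 CPM in Tbh-high cells and Dscam1 95 CPM in Tbh-low and 95.2 CPM in Tbh-high cells. Outside the members, CG14372 (side-IV), whose protein binds Beat-II proteins, had 0.508 CPM in Tbh-low and 101.97 CPM in Tbh-high cells. Other pathway genes differed in either direction. In the same order, Lac had 0 and 44 CPM, ed 148.4 and 33.8 CPM, Toll-6 178.5 and 55.3 CPM and CG34371 (side-V) 92.1 and 36.2 CPM. These genes were picked after values were seen and are given for all groups together. Median counts per cell were 1010350 in Tbh-low and 847801.5 in Tbh-high cells, and the glial gene repo had 1.34 CPM in Tbh-low and 12.1 CPM in Tbh-high cells.

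Other genes of these pathways were taken as 3 further lists. Of 9 receptor phosphatases and kinases, 4 reached 20 CPM. Of these 4, 1 was 2-fold lower in mutant males than in wild-type males, where 1.32% of all genes were, and 2 were lower in males among mutants, where 3.31% of all genes were. Among them Drl-2, a Wnt receptor gene, was 2-fold lower in mutant males than in wild-type males, with 11.2 CPM in mutant and 34.9 CPM in wild-type males (-1.55), and lower in males among mutants, with 11.2 CPM in males and 27.4 CPM in females (-1.22). Ptp69D, a receptor phosphatase gene, was lower in males among mutants, with 24.3 CPM in males and 49.8 CPM in females (-1.01). Of 27 further adhesion genes, 18 reached 20 CPM. Of these 18, none passed 2-fold between genotypes, where 1.07% to 1.92% of all genes did in a sex and direction, 1 was lower in males among mutants and 3 were lower in males among wild type, where 3.31% and 3.51% of all genes were in that order. Of these, Toll-7 was 2-fold lower in males among mutants, with 30.3 CPM in males and 75.9 CPM in females (-1.3), and among wild type, with 17.4 CPM in males and 51.6 CPM in females (-1.52). Among wild type, Lac was lower in males, with 21.4 CPM in males and 59.3 CPM in females (-1.43), as was ed, with 32.9 CPM in males and 68.7 CPM in females (-1.04). Of 21 genes that act below the receptors, 17 reached 20 CPM, and the 1 past 2-fold, where 3.51% of all genes were lower, was LIMK1, a kinase of the actin-severing protein cofilin, among wild type, with 96.3 CPM in males and 254.2 CPM in females (-1.39). The median ratios of mutant to wild type over these 3 lists and the Sidestep list lay between -0.0111 and 0.314 in females and between -0.0741 and 0.274 in males.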

How the data were processed

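Single cells were sorted by fluorescence into lysis buffer and sequenced with 75-base paired reads from Nextera XT libraries, per the labels' protocols. The authors deposited 1 table of estimated counts per gene, summed over exons of 1 condensed entry per gene by HOMER (analyzeRepeats.pl, dm6) and not normalized, per the file headers. FastQC, HOMER and edgeR are named in the submitters' processing notes. The aligner, versions and use of strand are not given in the sources used here, so reads of overlapping genes may not be told apart. The deposited values were multiples of 0.5 (56.2% of those above 0 were whole), where whole counts had been assumed, and were rounded for intervals, thinning and scaling factors.

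Of 212 cells, 13 with under 10000 counts or 500 genes were left out, and near-identical columns of 1 group (Pearson r of 0.95 or more over 7500 genes averaging 5 CPM) were averaged, which removed 10 columns. This left 189 cells, 175 of them with 100 CPM or more of Tdc2. Doublets were not searched for, as wells were to hold 1 sorted cell. Counts were summed per group and divided by the total over genes. Shares of cells use 10 CPM, ratios a pseudocount of 1, comparisons over genes a mean of 20 CPM, and levels between genes the length that the table lists. Each group was 1 sample, so no test was run. Intervals of levels are 95% exact Poisson, the limit of a count of 0 is 3 counts, and both cover counting error only, since amplified reads are not independent molecules. The interval of a share of cells is 95% exact binomial and treats cells as independent. Scaling factors came from edgeR 4.0.16 (R 4.3.3) and the rest from Python 3.11.15 with numpy 2.4.6, scipy 1.17.1 and pandas 2.3.3. The ratio and correlation steps were tested on simulated data. Positions and exon overlaps are those of Ensembl release 115, whose entry overlapped the dm6 position in the table for every member.

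The members, lists and limits were chosen with earlier results of these data known. Levels are given for every member at 20 CPM, and each comparison names those past 2-fold and, among members with 1 direction, up to 3 at either end, ranked on the smaller ratio. Sidestep genes were matched by symbol through RefSeq synonyms. Alternatives changed the weighting of cells, pseudocount, scaling, minimum, fold, depth and cells entered. Those by glial markers, running number, Tbh or pairs across groups alone were chosen after seeing the data.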

Additional observations from a re-analysis of the deposited data

Results flagged for a closer look

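The ratios of beat-Ia and beat-Va between genotypes had opposite directions in the sexes, and this difference was not tested. On the log2 scale, mutants against wild type stood at -1.55 in males and 0.58 in females for beat-Ia, a difference of -2.13. A single Tbh-low cell held 28% of the beat-Ia reads of mutant females, and without the Tbh-low cells the ratio of beat-Ia was -1.04 in males and 0.05 in females. For beat-Va they stood at 1.49 in males and -0.72 in females, a difference of 2.22 before rounding. Without the Tbh-low cells the ratio of beat-Va was 1.54 in males and -0.66 in females. Across cells beat-Ia and beat-Va had a rho of -0.42.

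The 14 cells under the Tdc2 minimum enter none of the comparisons, and a pair of members stood out in them. Dscam2 had 700.9 CPM in these cells and 63.5 CPM in Tdc2-positive cells, at 10 CPM or more in 9 of the 14, with 35.9% of its reads in 1 cell. Dscam3 had 116.1 CPM in these cells and 9.28 CPM in Tdc2-positive cells, in 7 of the 14, with 71.4% of its reads in 1 cell.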

How the results depend on the processing

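The median number of members per cell, the number of members at 20 CPM, the rank correlation of neighbouring Beat genes (0.5 to 0.58) and the counts for the split by Tbh (11 to 15 higher, 4 lower) stayed within 1.5 times or within the spread of cells under each alternative run. Counts of members past 2-fold between groups are small and moved more. In mutant against wild-type females, where 1 was higher and 1 lower, the higher count was 2 with title letter B only, and the lower count was 3 without each group's top cell, 4 with no Tdc2 minimum, 2 with a minimum of 1 CPM, 2 among cells with a running number above 96 (also where males numbered up to 96 entered) and 0 without cells with little Tbh. In males, where 1 was higher and 3 lower, these were 0 and 1 above number 96, and the lower count was 8 among males numbered up to 96. Between the sexes in mutants (1 higher, 3 lower) they were 0 and 12 above number 96. In wild type (1 higher, 6 lower) the higher count was 0 with per-cell means, 2 with title letter B only, 2 above number 96 and 3 with males numbered up to 96, and the lower count was 2 with a minimum of 100 CPM. For both sexes together the lower count was 1 with no Tdc2 minimum, and for both genotypes together 2 with per-cell means and 2 above number 96, where it had been 1. At a minimum of 100 CPM or a 4-fold limit the moved counts were 0, but for that count of 2. The causes were not tested. Counts in mutant against wild type within 1 direction in both sexes never exceeded 1.

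No paired analysis was possible because each group was 1 sample and no result comes from a test. At the depth of the shallowest cell, 20875 counts, 1 read stands above 10 CPM, so shares of cells rest on single reads there.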

Other observations

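The 14 cells under the Tdc2 minimum also differed in other members, given here as values. Of kek1 there were 306.8 CPM in these cells and 76.4 CPM in Tdc2-positive cells, of PlexA 223.4 CPM in these cells and 58.9 CPM in Tdc2-positive cells, and of robo2 17.2 CPM in these cells and 2.08 CPM in Tdc2-positive cells. For each of these genes 1 cell held a large part of the reads, 71.4% for PlexA, 47.7% for kek1 and 34.8% for robo2. Dscam4 went the other way, with 168.5 CPM in these cells and 602.9 CPM in Tdc2-positive cells, as did beat-Ia, with 17.7 CPM in these cells and 148.1 CPM in Tdc2-positive cells. There 1 cell under the minimum held 77.3% of the Dscam4 reads and 1 held 44.1% of the beat-Ia reads. Fas1 had 2086 CPM in these cells and 2016 CPM in Tdc2-positive cells. The labels do not say what these cells are.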
